A study of Mus musculus with 24 samples.

Results

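The genes described here are 45 mouse genes that build, cap and sulfate mucin-type O-glycans or carry the substrates for these steps, out of 53465 genes in the deposited count table. They were taken from a list of names, matched through their Ensembl IDs, and all 45 were found in the table. The list holds 14 polypeptide GalNAc transferases, 6 genes of core synthesis and branching, 4 of chain extension, 9 sialyltransferases, 4 fucosyltransferases, 2 terminal GalNAc or GlcNAc transferases, 4 sulfation genes and 2 nucleotide-sugar carriers. Gene positions are given in the GRCm38 build.

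RNA was sequenced from epithelial cells sorted from the Guca2a-Venus mouse, which carries a bacterial artificial chromosome with Venus, a yellow fluorescent protein, in place of the guanylin coding sequence, so that the guanylin promoter drives it. Guanylin, the product of Guca2a, is a peptide that activates guanylyl cyclase C on the gut epithelium. The line came from 1 founder, was backcrossed to C57Bl6J and keeps its own Guca2a gene. Every cell sorted, Venus-negative ones included, carries the transgene. The labels give no age, sex or treatment. The 8 groups are duodenum, jejunum, ileum and colon, each Venus-positive and Venus-negative, with 3 libraries in each group from 3 mice. The labels do not say which libraries share a mouse. The gut pieces were the upper, middle and lower ends of the small intestine and the whole colon with rectum, and cells with the leukocyte marker CD45 were gated out. Each library is bulk RNA of sorted cells, so fewer cells of a type and less RNA per cell cannot be told apart in any value below.

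O-glycosylation of mucins starts in the Golgi, where a polypeptide GalNAc transferase adds N-acetylgalactosamine to a serine or threonine. Core enzymes then add galactose or N-acetylglucosamine, branching enzymes open further arms, and the arms are extended and capped with sialic acid, fucose, GalNAc or sulfate. Goblet cells, which secrete the gel-forming mucin Muc2, are the best known users of the pathway in the gut, and absorptive cells use it for the membrane mucins of the glycocalyx. Sulfation needs sulfate from outside the cell, the donor PAPS and a sulfotransferase. The composition of these chains is known to vary along the bowel.

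Between 7458616 and 23063124 reads were counted on genes per library, 32.3 to 80.7% of them on mitochondrial genes, and 7112 to 34303 fell on the 45 genes. The mitochondrial share moved with the sort in the small intestine, at 32.3 to 46.6% in duodenal positive against 64.6 to 76.4% in duodenal negative libraries, 47.1 to 60.6% against 61.2 to 78.8% in jejunal and 41.0 to 55.4% against 64.7 to 70.9% in ileal ones. Colonic libraries overlapped, at 68.6 to 77.9% and 65.3 to 80.7%. Uncounted reads (outside genes, ambiguous or multimapping) made up 64.6 to 75.8% of duodenal positive and 45.4 to 55.2% of duodenal negative libraries. Ileal libraries also separated, at 54.1 to 60.6% and 49.5 to 53.2%. Jejunal (51.9 to 60.3% and 39.4 to 57.1%) and colonic ones (41.9 to 47.2% and 45.2 to 57.6%) overlapped. With mitochondrial genes left out of the fit, 163 of 167 called differences of the 45 genes were still called in the same direction. The part of the uncounted reads was not tested. Levels are counts per 1000000 counts of a library scaled by TMM (normalised CPM), and 3 counts correspond to 0.106 to 0.360 normalised CPM. Libraries of a group differed by far more than counting noise (chi-square per degree of freedom 26.5 to 177 over 24 pairs). Guca2a itself was at 104 normalised CPM or more in Venus-positive and 2.67 to 120 in Venus-negative libraries, with no overlap within a region. The cells of the Venus-positive sort were not of 1 type in the 4 regions. All 8 goblet markers examined were called higher in the positive cells of every region, but their summed level was 53000 to 60500 normalised CPM in duodenal positive libraries against 1910 to 4910 in jejunal, 4390 to 10100 in ileal and 4070 to 4980 in colonic ones (negative libraries, 296 to 455 in the small intestine and 926 to 1850 in the colon). The 5 Paneth markers were all called higher in duodenum, jejunum and ileum and none in the colon, and summed to 16500 to 45400 in duodenal positive libraries and to 39.6 to 193 in colonic ones. The 6 enterocyte markers, of which 2, 6, 6 and 3 were called higher in duodenum, jejunum, ileum and colon, summed to 19100 to 24400 in jejunal positive libraries, 2990 to 7230 in ileal and 310 to 400 in colonic ones. The 4 colonocyte markers were all called higher in colonic positive cells, where they summed to 1460 to 1650, against 101 to 258 in colonic negative libraries and at most 158 in any library of the small intestine. Among jejunal positive libraries the third had the highest Paneth sum (13900, against 5150 and 1420). Enteroendocrine markers summed to 140 to 1170 in negative and 9.90 to 293 in positive libraries, and leukocyte markers to at most 10.7 in any library. Tuft markers reached 11.9 to 48.3 in negative and 2.85 to 16.9 in positive libraries, and stromal and endothelial markers 4.08 to 23.8 and 0.113 to 3.33. Within a region neither of these lists overlapped between the sorts. The 5 stem and proliferation markers summed to 483 to 986 in duodenal positive libraries and to 34.6 to 300 in jejunal and ileal ones, against 1070 to 3690 in the negative libraries of the small intestine. The part of these cell types in the differences described here was not tested.

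A count near 0 cannot be read as absence in this table. Gapdh, which every cell uses, had only 13 to 211 counts per library and Pgk1 3 to 46, against 2655 to 34924 for Actb. In all, 7 of the 45 genes were too low to be tested. Galnt2, Galnt14, Galnt15, Galnt16, St6galnac1, St6galnac3 and Chst5 had at most 22 counts in any library, and St6galnac1, a transferase that caps the first GalNAc with sialic acid, had 1 count over all 24. The exons of Galnt2 overlap those of another annotated gene on the same strand, as do those of Galnt4 and of St6galnac2, so reads could be split or left out there. St6galnac2 has a second gene ID with 2 to 56 counts per library beside the 46 to 324 of the ID used here. The St6galnac4 gene (chr2:32587095-32599698, plus strand) ends just before St6galnac6 (chr2:32599709-32620806, plus strand) begins.

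Venus-positive cells of all 4 regions had higher levels of the same 5 genes in the edgeR quasi-likelihood F test (p adjusted by the Benjamini-Hochberg method over 15044 genes). They were Galnt6, Gcnt3, B3gnt3, B4galnt2 and Slc26a2, where 2.88% of all genes tested were called higher in all 4. The jejunal call of Gcnt3 was lost without any 1 of jejunum Venus-positive replicates 1 and 3 and jejunum Venus-negative replicates 1 and 3 (0.58 to 0.91), and its jejunal libraries overlapped. Because these 5 moved in the same direction in every region, the 250 bases before the RefSeq start of 3 of them are shown. Each runs 5′ to 3′ on the strand of the gene and comes from the RefSeq promoter table of GRCm38.p6, in which 32 of the 45 genes had a window. For B3gnt3 and B4galnt2 this start differs from that of the gene positions given below, and the B4galnt2 window ends inside the gene so positioned. Capitals mark matches, on either strand, to CAAAGTCCA (an HNF4-type motif), AGGAAG (ETS), TTTAT (CDX), GGGCGG (Sp/KLF) or TATAAA (the TATA box). TTTAT is contained in the reverse complement of TATAAA.
Galnt6 (chr15:100729377-100729626): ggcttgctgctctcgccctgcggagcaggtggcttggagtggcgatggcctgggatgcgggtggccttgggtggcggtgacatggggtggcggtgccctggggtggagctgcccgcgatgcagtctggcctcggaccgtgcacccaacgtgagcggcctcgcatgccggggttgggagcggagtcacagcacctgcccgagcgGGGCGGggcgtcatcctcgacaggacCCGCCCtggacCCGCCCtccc
B3gnt3 (chr8:71701801-71702050): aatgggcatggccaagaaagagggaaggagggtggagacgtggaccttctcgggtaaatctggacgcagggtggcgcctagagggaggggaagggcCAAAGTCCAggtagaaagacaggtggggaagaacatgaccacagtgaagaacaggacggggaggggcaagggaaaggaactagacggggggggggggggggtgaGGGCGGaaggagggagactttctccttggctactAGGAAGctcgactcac
B4galnt2 (chr11:95914872-95915121): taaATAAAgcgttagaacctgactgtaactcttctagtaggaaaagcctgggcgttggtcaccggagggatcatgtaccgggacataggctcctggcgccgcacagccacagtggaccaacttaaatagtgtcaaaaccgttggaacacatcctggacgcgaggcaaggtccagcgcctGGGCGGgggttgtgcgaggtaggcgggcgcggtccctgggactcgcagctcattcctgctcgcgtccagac
GGGCGG or its reverse complement occurred in all 3 windows, at 3 places in Galnt6, as it did in 32.9% of 27025 RefSeq windows of the same length. CAAAGTCCA occurred in the B3gnt3 window, 154 bases before the start, and in 0.381% of all windows. AGGAAG occurred 16 bases before the start of B3gnt3 (29.2% of all windows), and ATAAA, the reverse complement of TTTAT, near the far end of the B4galnt2 window (38.1%). No TATAAA was found in the 3 windows (13% of all windows hold it). A match is a string of letters and not a binding site, and no binding was measured here.

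Over the whole list, 22 of the 45 genes were called higher and none lower in Venus-positive cells of the duodenum, where 8.88% of all genes tested were called higher and 8.08% lower. At an unadjusted p under 0.05, 25 were higher and 2 lower in the duodenum, and DESeq2 called 24 higher and 1 lower. The jejunum gave 15 higher and 2 lower (background 18.3% and 25.6%), the ileum 20 and 1 (17.9% and 20.6%). In the colon 14 were higher and none lower (9.31% and 3.8%), with 22 and 1 at an unadjusted p under 0.05 and 14 and 1 by DESeq2, the lower one being B3gnt7. The median log2 fold change of the 38 tested genes was 1.83, 0.58, 1.41 and 1.13 in these 4 regions, against -0.162, -0.284, -0.272 and 0 over all genes tested. A gene could pass the filter on low counts through the group in which it was high, so these medians do not stand for all 45. In all, 28 genes were called higher in at least 1 region, 16 in at least 3 and 5 in all 4, as the plot of log2 fold changes by region shows. Of all 15044 genes tested, 25.9% were called higher in at least 1 region, 8.9% in at least 3 and 2.88% in all 4.

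**Figure D1:**
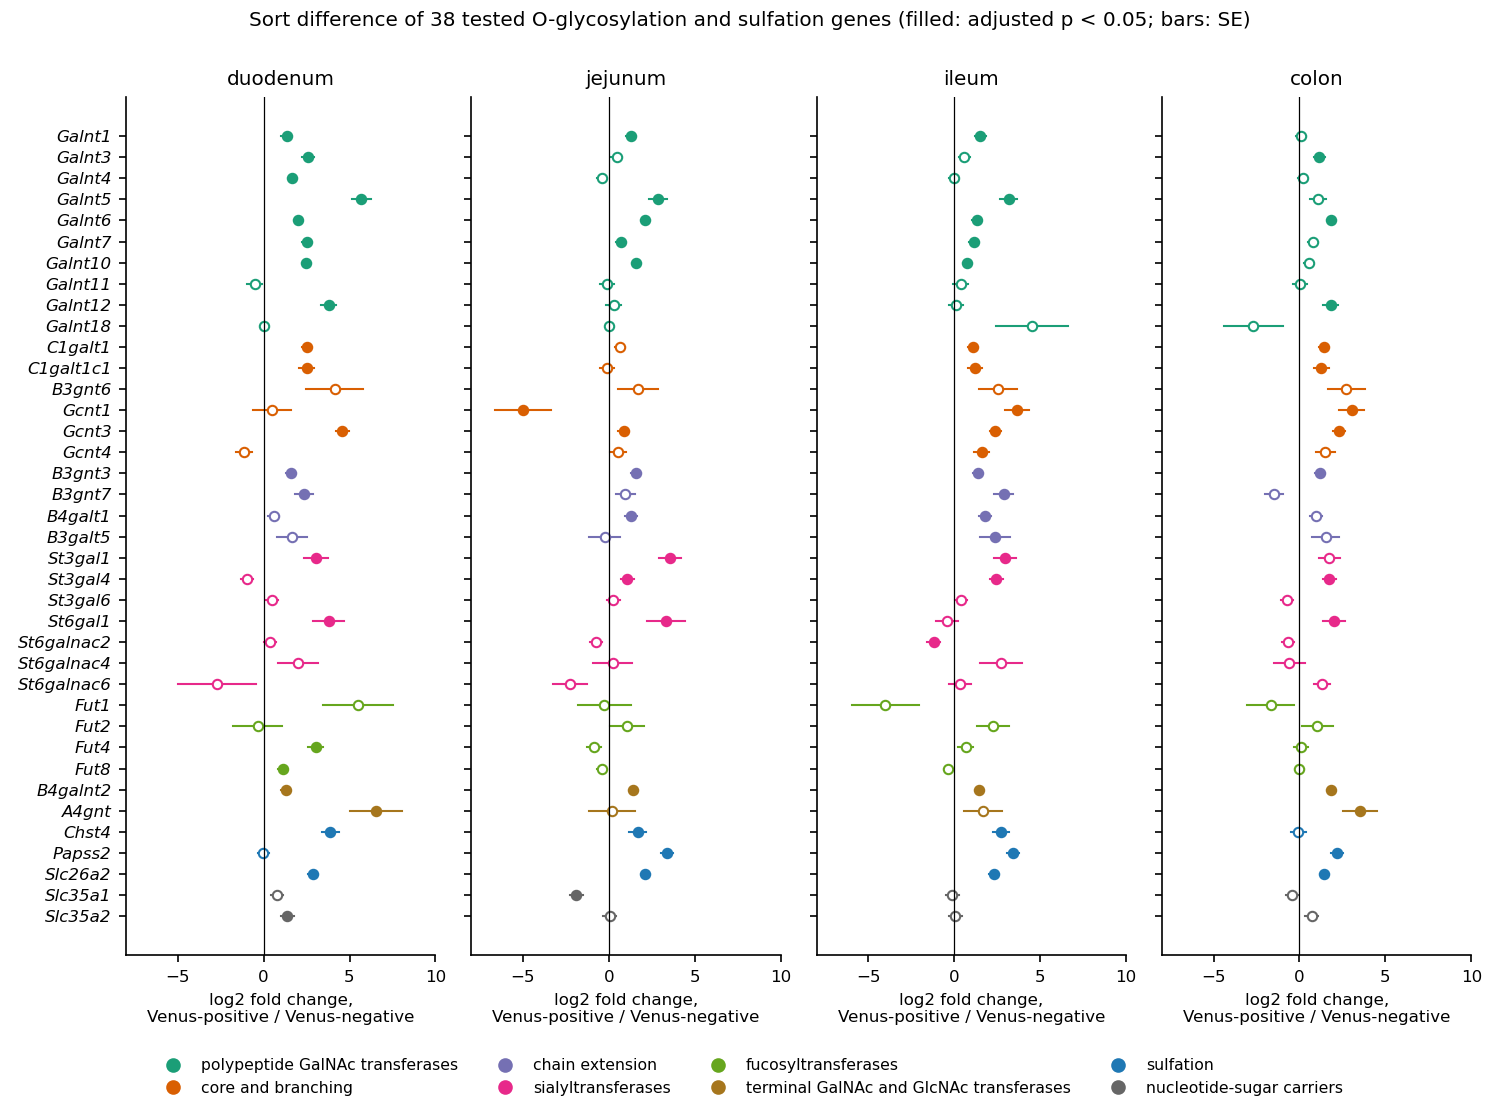
Log2 fold change of Venus-positive over Venus-negative cells (x axis) of the 38 tested genes (rows, coloured by role) in each region. Points are fitted values, bars their standard errors, and filled points passed an adjusted p of 0.05. Filled points lie to the right of 0 except for Gcnt1 and Slc35a1 in the jejunum and St6galnac2 in the ileum, and the wide bars belong to genes with few counts in 1 group.

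The initiating enzymes were the largest group, and 8 of the 14 were called higher in duodenal, 5 in jejunal, 5 in ileal and 3 in colonic positive cells, with none lower. The shares of all genes called higher in these regions were 8.88%, 18.3%, 17.9% and 9.31%. Galnt6 (chr15:100691813-100729376, minus strand), a transferase of mucin-secreting epithelia, was at 112, 106 and 106 normalised CPM in the Venus-positive libraries and 29.0, 22.5 and 29.8 in the Venus-negative libraries of the duodenum (log2 fold change 1.99, SE 0.25, adjusted p = 1.28e-06). In the jejunum it was at 201, 160 and 145 normalised CPM in the Venus-positive libraries and 36.4, 50.1 and 29.6 in the Venus-negative libraries (log2 fold change 2.12, SE 0.25, adjusted p = 2.20e-07). The ileum had 89.9, 80.3 and 102 in positive and 38.7, 43.5 and 27.7 in negative libraries, and the colon 55.7, 58.9 and 49.6 and 15, 14.6 and 16.2 (log2 fold change 1.31 and 1.84). Positive and negative libraries did not overlap in any region, and the jejunal positive libraries were the highest of all. An annotated antisense gene overlaps Galnt6 exons. Exons of other genes of the list are also overlapped by a gene on the other strand, among them B4galnt2, St3gal4, B3gnt7, Galnt5 and Galnt7.

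Galnt5, which is known from mucous tissues, had the largest log2 fold change of the initiating enzymes in duodenum, jejunum and ileum among those called. In the duodenum it was at 83.9, 71.1 and 50 normalised CPM in the Venus-positive libraries and 1.54, 1.69 and 0.721 in the Venus-negative libraries (log2 fold change 5.68, SE 0.55, adjusted p = 1.22e-08). Jejunal libraries had 4.35, 3.12 and 11.6 in positive and 0.759, 1.54 and 0.302 in negative cells, and ileal ones 20.4, 6.31 and 9.19 and 1.98, 1.09 and 0.887 (log2 fold change 2.85 and 3.17, adjusted p = 6.68e-05 and 1.05e-05). In the colon, where negative cells held 7.79, 5.05 and 6.80 and positive cells 12.0, 14.9 and 15.2, the positive libraries were again all above the negative ones, but the difference did not pass the threshold (log2 fold change 1.10, adjusted p = 0.113). Each duodenal positive library stood above all libraries of the other regions.

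Galnt1, a widely expressed initiating enzyme, was called higher throughout the small intestine and not in the colon. It was at 57.2, 63.8 and 66.1 in duodenal, 60.0, 63.0 and 90.4 in jejunal and 69.7, 77.9 and 92.9 in ileal positive libraries, where the negative ones ranged over 18.4 to 43.2. Colonic libraries were low in both sorts, 15.3, 16.0 and 15.5 in positive and 12.3, 11 and 20.9 in negative cells. The log2 fold changes were 1.34, 1.28 and 1.53 in the small intestine and 0.08 in the colon.

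Galnt7 and Galnt10 act mainly on peptides that already carry a GalNAc. Galnt7 was at 145, 135 and 130 normalised CPM in the Venus-positive libraries and 15.7, 29.4 and 25.4 in the Venus-negative libraries of the duodenum (log2 fold change 2.54, SE 0.30, adjusted p = 3.27e-07). Its values were 80.7, 53.5 and 60.9 against 30.8, 30.6 and 27.7 in the ileum and 21.3, 31.5 and 44.5 against 17.8, 17.8 and 24.4 in the jejunum, and the jejunal libraries overlapped. The jejunal call of Galnt7 (log2 fold change 0.69, adjusted p = 0.0497) was lost without any 1 of jejunum Venus-negative replicates 1 and 2 and jejunum Venus-positive replicates 2 and 3 (0.39 to 0.81). In the colon it was at 66.7, 73.6 and 70.3 and 55.5, 28.9 and 38.4, which did not pass (adjusted p = 0.0684). Galnt10 was at 88.9, 82.9 and 85.0 in positive and 14.8, 14.7 and 16.1 in negative duodenal libraries, and at 43.3, 50.5 and 43.0 and 9.56, 17.2 and 18.6 in jejunal ones, without overlap (log2 fold change 2.49 and 1.59). Its ileal difference was small, 36.1, 27.9 and 35.3 against 19.2, 23.5 and 16.5, and that call (log2 fold change 0.75) was lost without any 1 of ileum Venus-positive replicates 1 and 3 and ileum Venus-negative replicates 1 and 3 (0.63 to 0.72). Colonic Galnt10 was at 48.6, 45.7 and 45 in positive and 41.8, 31.4 and 23.0 in negative libraries, which did not pass (adjusted p = 0.176).

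Galnt12, a transferase of the digestive tract, was called higher in duodenum and colon only among the 4 regions. Duodenal libraries had 81.8, 61.7 and 59.8 in positive and 7.09, 2.53 and 5.19 in negative cells (log2 fold change 3.78, SE 0.46, adjusted p = 6.41e-07), and colonic ones 37.3, 32.3 and 23.7 and 6.47, 9.67 and 10.2 (log2 fold change 1.82, SE 0.43, adjusted p = 0.00451). Jejunal and ileal libraries of both sorts overlapped, at 4.09, 2.01 and 10.6 and 2.81, 5.79 and 5.02 in the jejunum and 12.1, 6.49 and 8.53 and 12.2, 6.31 and 6.49 in the ileum. Galnt3 was called higher in the same 2 regions, at 45.2 to 51.4 in duodenal positive and 7.44 to 8.72 in duodenal negative libraries, and its colonic call (log2 fold change 1.16) was lost without any 1 of colon Venus-negative replicates 1 and 2 and colon Venus-positive replicates 2 and 3 (0.93 to 1.19). Galnt4, at 17.9 to 93.3 in positive libraries, was called higher in the duodenum alone (log2 fold change 1.67, adjusted p = 3.48e-05). Galnt11 stayed between 2.07 and 8.49 in all 24 libraries and was called in none of the 10 comparisons made.

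Divided by exon length and summed, the 14 transferases reached 146 to 164 normalised CPM per kilobase in duodenal positive libraries, against 27.6 to 31.2 in duodenal negative ones. The make-up of this sum differed by region. Galnt6 made up 53.6% ± 9.76 (SD, n = 3) of it in jejunal positive cells, 31.8% ± 2.27 in ileal, 19.2% ± 0.808 in colonic and 18.2% ± 0.564 in duodenal ones. Galnt12 supplied 19.2% ± 2.20 in duodenal and 18.4% ± 3.11 in colonic positive cells but 2.88% ± 2.17 in jejunal and 5.27% ± 1.18 in ileal ones. Galnt1 supplied 19.8% ± 3.46 in ileal and 3.85% ± 0.239 in colonic positive cells. In colonic negative cells Galnt4 came first, with 29.0% ± 2.5. These shares are a description with no test, and Galnt2 and Galnt4 share exon sequence with other genes.

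**Figure D2:**
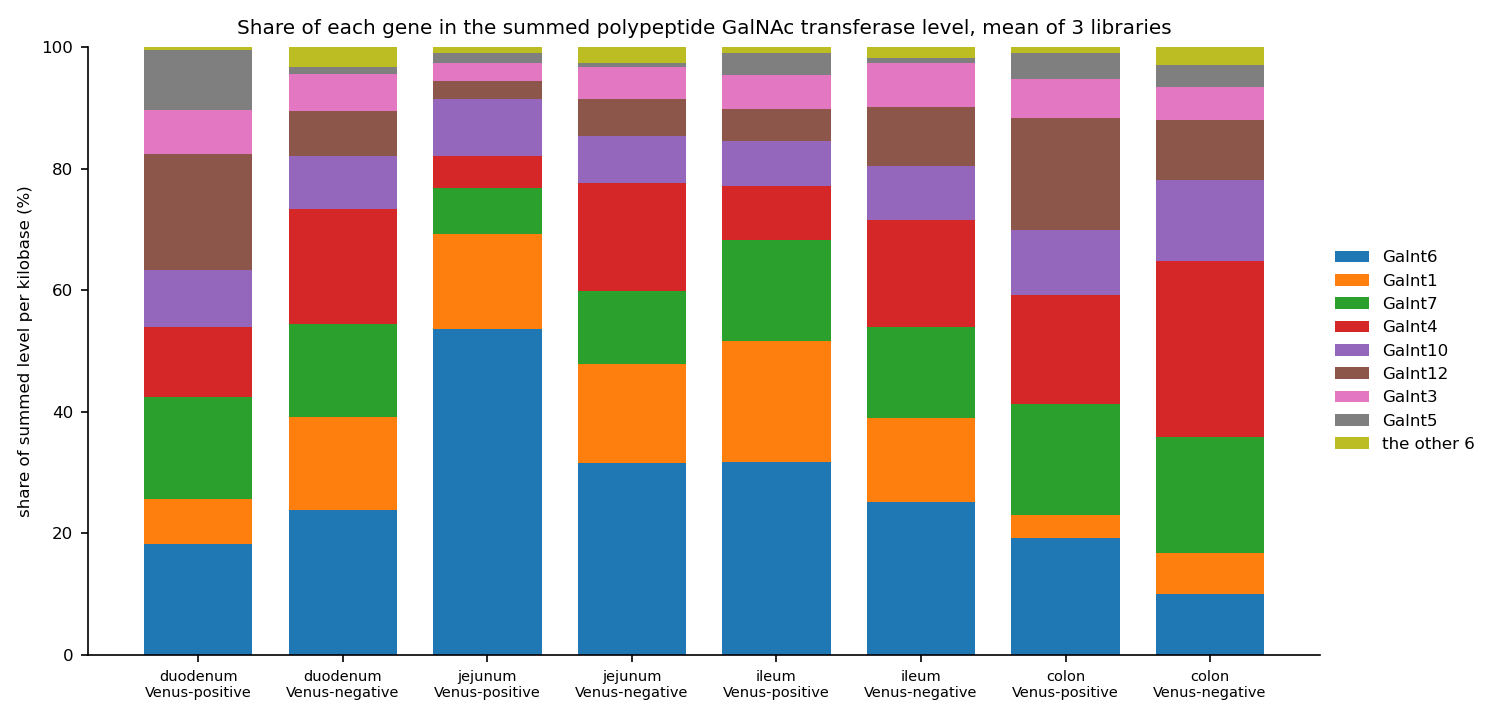
Share (y axis, percent) of each gene in the summed level per kilobase of the 14 polypeptide GalNAc transferases in the 8 groups (x axis), as the mean of 3 libraries. The Galnt6 block is tallest in jejunal positive cells (53.6%), and the Galnt12 block is wide in duodenal and colonic positive cells (19.2% and 18.4%).

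Core 1 synthesis needs C1galt1, which adds galactose to the first GalNAc, and its chaperone C1galt1c1 (Cosmc). C1galt1 was at 125, 126 and 94.9 normalised CPM in the Venus-positive libraries and 20, 23.0 and 17.1 in the Venus-negative libraries of the duodenum (log2 fold change 2.52, SE 0.30, adjusted p = 4.00e-07). Colonic libraries had 73.6, 75.8 and 80.6 in positive and 33.9, 26.1 and 25.5 in negative cells, and ileal ones 47.6, 43.3 and 56.6 and 19.8, 24.6 and 25.4 (log2 fold change 1.43 and 1.08). Libraries of the 2 sorts did not overlap in these 3 regions but did in the jejunum, with 41.0, 30.9 and 48.5 against 16.2, 19.1 and 42.5 (adjusted p = 0.0763).

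The chaperone was highest in duodenal positive cells as well, at 67.9, 89.2 and 67.6 against 7.86, 13.2 and 18.2 (log2 fold change 2.52, SE 0.44, adjusted p = 0.000149). In the jejunum C1galt1c1 was at 12.0, 6.19 and 22.2 in positive and 15.6, 5.73 and 22.3 in negative libraries, which overlapped widely. Ileal libraries had 18.2, 12.9 and 22.7 and 7.14, 5.71 and 10.6 (log2 fold change 1.20), and colonic ones 16.1, 21.4 and 29.0 and 5.63, 9.52 and 12.1 (log2 fold change 1.28). The ileal call was lost without any 1 of ileum Venus-negative replicates 1 and 2 and ileum Venus-positive replicate 3 (0.99 to 1.13), and the colonic one without any 1 of colon Venus-negative replicates 1 and 2 and colon Venus-positive replicates 2 and 3 (1.05 to 1.25).

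Core 3 synthase, B3gnt6, the enzyme that starts the chains typical of colonic mucin, was called in no sort difference. It was at 9.19, 7.79 and 8.91 in colonic positive and 0.120, 1.83 and 1.87 in colonic negative libraries, which did not overlap (log2 fold change 2.72, adjusted p = 0.0973). Per kilobase, B3gnt6 stood at 0.264 to 0.321 of the level of C1galt1 in colonic positive libraries, and at 0 to 0.178 in the positive libraries of the small intestine. In colonic negative libraries this ratio was 0.00908, 0.180 and 0.188.

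Gcnt3 (chr9:70031496-70038088, minus strand) makes the core 2 and core 4 branches of secreted mucins. In the duodenum it was at 264, 219 and 207 normalised CPM in the Venus-positive libraries and 7.23, 10.4 and 11.2 in the Venus-negative libraries (log2 fold change 4.58, SE 0.36, adjusted p = 2.32e-10). The colon had 174, 155 and 132 against 20.3, 32.5 and 41.0 (log2 fold change 2.30, SE 0.33, adjusted p = 2.13e-05), and the ileum 66.3, 31.4 and 66.1 against 9.82, 11.6 and 9.53 (log2 fold change 2.40, SE 0.33, adjusted p = 1.82e-06). These libraries did not overlap, whereas the jejunal ones did. In the jejunum Gcnt3 was at 16.2, 9.71 and 21.6 and 6.07, 10.7 and 9.07, and the call (log2 fold change 0.87, adjusted p = 0.0300) was lost without any 1 of jejunum Venus-positive replicates 1 and 3 and jejunum Venus-negative replicates 1 and 3 (0.58 to 0.91). The third jejunal positive library, whose loss lowered this value most, is the one with the highest goblet (4910, against 4180 and 1910), Paneth (13900, against 5150 and 1420) and stem marker sums (300, against 56.9 and 34.6) of its group, and the part of those cells in this value was not tested.

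The other 2 branching enzymes were called higher in fewer regions, Gcnt1 in ileum and colon and Gcnt4 in the ileum. Gcnt1, which makes core 2 branches, was at 9.80, 25.5 and 17.9 in ileal positive and 0.743, 2.22 and 1.27 in ileal negative libraries (log2 fold change 3.64, SE 0.70, adjusted p = 0.000158), and at 6.65, 12.8 and 5.62 and 0, 1.32 and 1.62 in colonic ones (log2 fold change 3.03, SE 0.71, adjusted p = 0.00465). Both duodenal sorts stayed at or below 0.246. In the jejunum no positive library had a count and the negative ones were at 0, 0.322 and 0.423, which makes the negative cells at least 4.18-fold higher over the group (floor of 3 counts). That call of a lower level rests on 12 counts and was lost without any 1 of jejunum Venus-positive replicate 2 and jejunum Venus-negative replicate 3 (-4.93 to -4.42). Gcnt4, another core 2 enzyme, was highest in ileal positive libraries, at 35.6, 28.5 and 19.1 against 11.1, 11.8 and 4.60 (log2 fold change 1.59, SE 0.46), and that call was lost without ileum Venus-negative replicate 3 (1.27). In the duodenum the order was the opposite without passing the threshold, 4.20, 5.99 and 8.10 in positive and 15.6, 14.1 and 10.5 in negative libraries (log2 fold change -1.14, adjusted p = 0.0935). Jejunal Gcnt4 was at 14.6, 16.8 and 25.0 and 8.80, 11.1 and 18.9, and colonic at 3.94, 2.12 and 1.16 and 0.120, 1.76 and 0.425.

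Among the genes of chain extension, B3gnt3 (chr8:71690756-71701789, minus strand), which lengthens core 1 chains with N-acetylglucosamine, ranged over 35.5 to 59.9 in all positive libraries and 10.8 to 25.1 in all negative ones. It was at 59.9, 48.3 and 59.4 in duodenal, 52.7, 59.0 and 49.7 in jejunal, 37.3, 56.8 and 50.5 in ileal and 46.7, 47.4 and 35.5 in colonic positive libraries. It was at 18.2, 16.0 and 22.3 in duodenal, 10.8, 21.2 and 21.7 in jejunal, 18.8, 25.1 and 11.6 in ileal and 22.2, 19.0 and 16.2 in colonic negative libraries. Positive and negative libraries did not overlap in any region, with log2 fold changes of 1.57, 1.59, 1.38 and 1.18 and adjusted p of 0.000337, 5.67e-05, 0.000333 and 0.00605.

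B3gnt7, which extends sulfated poly-N-acetyllactosamine chains, was called higher in duodenum and ileum and had its lower levels in the positive cells of the colon. It was at 30.7, 34.3 and 26.4 in duodenal positive and 7.93, 3.89 and 6.13 in duodenal negative libraries, and at 8.18, 50.1 and 13.2 and 2.15, 5.75 and 1.61 in ileal ones (log2 fold change 2.35 and 2.89). In the colon the negative libraries were at 39.8, 40.1 and 38.8 and all 3 positive ones were below them, at 8.96, 8.92 and 24.1. The colonic difference just missed the threshold (log2 fold change -1.50, SE 0.52, adjusted p = 0.0546). All 8 alternatives other than leaving out a library called it lower (log2 fold change -1.68 to -1.51, adjusted p = 0.000788 to 0.0484), as did the fit without colon Venus-positive replicate 3. Jejunal libraries were low and overlapped, at 2.49, 7.75 and 6.05 and 1.44, 3.73 and 3.15.

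B4galt1, which adds the galactose of type 2 chains, was called higher in jejunum and ileum (log2 fold change 1.30 and 1.79), where positive libraries reached 37.0 to 99.1 against 13.1 to 28.7 in negative ones. B3galt5, which adds the galactose of type 1 chains, was called higher in the ileum and in no other region. In each ileal sort 1 library was far above the other 2. Its ileal positive libraries were at 0.377, 19.6 and 2.43 and the negative ones at 0.165, 3.49 and 0.443 (log2 fold change 2.39, adjusted p = 0.0295). The call was lost without any 1 of ileum Venus-negative replicates 1 and 3 and ileum Venus-positive replicate 2 (-0.08 to 2), and the lowest of these values, which reversed the sign, was the one without ileum Venus-positive replicate 2. In colonic positive libraries B3galt5 was at 66.8, 95.5 and 72.0, above the 33.2, 19.9 and 28.7 of the negative ones, without passing the test (adjusted p = 0.223).

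The sialyltransferases were split. Of 9, 2 were called higher in duodenal, 3 in jejunal, 2 in ileal and 2 in colonic positive cells (over all genes, 8.88%, 18.3%, 17.9% and 9.31%), and 1 was lower in ileal ones (over all genes, 20.6%). The ileal counts were close to or under the shares over all genes. St3gal1, which puts sialic acid on the galactose of core 1, was at 58.3, 19.9 and 24 normalised CPM in the Venus-positive libraries and 2.43, 3.99 and 2.24 in the Venus-negative libraries of the jejunum (log2 fold change 3.56, SE 0.64, adjusted p = 4.87e-05). Duodenal libraries had 4.71, 6.98 and 5.97 against 0.842, 0.778 and 0.505, and ileal ones 2.75, 15.8 and 19.6 against 1.07, 2.40 and 1.39 (log2 fold change 3.04 and 2.95). In the colon the negative libraries spread from 0.935 to 12.1 while the positive ones were at 17.9, 16.6 and 15.8. They did not overlap, and the difference missed the threshold (log2 fold change 1.74, adjusted p = 0.0545).

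St3gal4, which sialylates galactose at the ends of type 2 chains, had the highest level per kilobase of the 45 genes in jejunal and ileal positive cells, 212 ± 29.0 and 219 ± 61.3 normalised CPM per kilobase (SD, n = 3). Ileal libraries were at 441, 685 and 791 normalised CPM in the Venus-positive libraries and 92.3, 139 and 118 in the Venus-negative libraries (log2 fold change 2.46, SE 0.38, adjusted p = 8.01e-06), and colonic ones at 48.2, 76.2 and 55.6 and 8.87, 31.2 and 13.4 (log2 fold change 1.74, SE 0.37, adjusted p = 0.00184). In the jejunum St3gal4 was at 529, 636 and 696 and 219, 210 and 450, a call (log2 fold change 1.08, adjusted p = 0.0158) that was lost without any 1 of jejunum Venus-negative replicates 1 and 2 (0.89 to 0.97). The duodenum ran the other way without passing the threshold, with 106, 113 and 155 in positive libraries, all below the 223, 270 and 235 of the negative ones (log2 fold change -0.96, adjusted p = 0.0645). St3gal6, a related enzyme, was called in no sort difference, with duodenal values of 43.6, 35.7 and 25.3 and 27.2, 26.4 and 20.8.

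St6gal1, which sialylates galactose mainly on N-glycans, was low outside the colon. It was at 20.2, 10.3 and 20.8 in colonic positive and 3.12, 2.93 and 6.80 in colonic negative libraries, without overlap (log2 fold change 2, adjusted p = 0.0419). The colonic call was lost without any 1 of colon Venus-positive replicates 1, 2 and 3 and colon Venus-negative replicates 1 and 2 (1.70 to 2.20). Duodenal libraries had 1.74, 1.81 and 1.46 and 0, 0.324 and 0 (log2 fold change 3.79, adjusted p = 0.00428). In the jejunum 0.767, 0 and 0.802 stood against 0, 0.0643 and 0.0605, 23 counts against 2, a ratio of 11 (95% counting interval 2.72 to 96.3), and the call was lost without any 1 of jejunum Venus-positive replicates 1 and 3 and jejunum Venus-negative replicate 1 (2.86 to 2.94). Ileal libraries overlapped, at 3.77, 1.32 and 1.77 and 3.51, 2.72 and 2.94.

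St6galnac2, which adds sialic acid to GalNAc, was the sialyltransferase called lower, in the ileum. Its positive libraries there were at 5.38, 2.76 and 4.34 and the negative ones at 13.4, 6.28 and 9.09 (log2 fold change -1.20, SE 0.36, adjusted p = 0.00899), and the call was lost without any 1 of ileum Venus-negative replicate 1 and ileum Venus-positive replicate 2 (-0.98 to -0.88). St6galnac4 and St6galnac6, which add a further sialic acid to sialylated chains, were called in no sort difference. Colonic St6galnac6 was at 54.9, 62.6 and 54.2 in positive and 22.3, 27.4 and 18.7 in negative libraries, which did not overlap (log2 fold change 1.33, adjusted p = 0.0588).

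Of the 4 fucosyltransferases, Fut4 and Fut8 were called higher in duodenal positive cells, and Fut1 and Fut2 in no region (higher over all genes, 8.88%, 18.3%, 17.9% and 9.31% in duodenum, jejunum, ileum and colon). Fut4, which makes the fucose bond of Lewis x structures, was higher with 18.7 to 26.7 in positive and 2.59 to 3.09 in negative libraries (log2 fold change 3.03, SE 0.44, adjusted p = 1.04e-05). Fut8, the core fucosyltransferase of N-glycans, was at 86.0 to 104 against 44.8 to 46.2 (log2 fold change 1.10, adjusted p = 0.00494). No test compared the duodenum with the colon for these genes. Fut1 had at most 2.56 normalised CPM in any library. Its 11 counts in duodenal positive cells stood against 0 in the negative ones, at least 5.18-fold higher when pooled. The difference did not pass the threshold (adjusted p = 0.0626).

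Fut2, the secretor enzyme that makes the fucosylated H structure on gut mucins, was called in no sort difference and differed widely among the libraries of a group. Ileal positive libraries were at 0.915, 68.9 and 42.4, ileal negative ones at 1.4, 17.8 and 3.77, jejunal positive ones at 0, 8.76 and 3.79 and jejunal negative ones at 0.835, 3.47 and 1.75. The ileal sort difference just missed the threshold (log2 fold change 2.27, SE 0.92, adjusted p = 0.0505). Colonic libraries were even, at 36.9, 56.3 and 45 and 23.8, 22.0 and 21.5, and duodenal ones did not exceed 1.26.

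B4galnt2 (chr11:95865943-95914891, minus strand) adds the terminal GalNAc of the Sd(a) antigen of the gut, and was the member with the highest level per kilobase in duodenal and colonic positive cells, 76.4 ± 5.59 and 116 ± 5.86 (SD, n = 3). It was at 141, 133 and 122 normalised CPM in duodenal, 143, 132 and 155 in jejunal, 202, 193 and 201 in ileal and 211, 197 and 191 in colonic positive libraries. Duodenal negative libraries had 62.6, 46.5 and 53.4, jejunal ones 45.5, 57.2 and 58.4, ileal ones 92.1, 67.2 and 59.4 and colonic ones 74.5, 47.0 and 47.4. The log2 fold changes were 1.28, 1.42, 1.44 and 1.83, with SEs of 0.25 and no overlap in any region.

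A4gnt, which makes the terminal GlcNAc of gastric gland mucin, was called higher in duodenal and colonic positive cells. Duodenal positive libraries had 0.410, 4.93 and 3.26, 93 counts in all, and the negative ones 1 count, a ratio of 131 (95% counting interval 23.0 to 5240) (adjusted p = 0.00318). In the colon it was at 15.7, 12.8 and 25.9 against 0, 2.49 and 2.04 (log2 fold change 3.54, SE 1, adjusted p = 0.0171). The colonic call was lost without colon Venus-positive replicate 3 (3.20) and in DESeq2 (3.52, adjusted p = 0.0828). Jejunal and ileal libraries did not exceed 1.10 in either sort.

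Of the 4 sulfation genes, 2 were called higher in duodenal, 3 in jejunal, 3 in ileal and 2 in colonic positive cells, with none lower (higher over all genes, 8.88%, 18.3%, 17.9% and 9.31%). Slc26a2, a sulfate transporter of the plasma membrane, was at 182, 210 and 121 in duodenal, 162, 173 and 166 in jejunal, 234, 269 and 262 in ileal and 249, 232 and 191 in colonic positive libraries. Duodenal negative libraries had 22.4, 24.6 and 22.6, jejunal ones 34.1, 45.2 and 36.0, ileal ones 49.5, 58.2 and 45.7 and colonic ones 109, 76.0 and 61.3. No positive library overlapped a negative one of its region, and the log2 fold changes were 2.88, 2.12, 2.32 and 1.45 (SE 0.26 to 0.28).

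Papss2, which makes the sulfate donor PAPS, was called higher in jejunum, ileum and colon but not in the duodenum. Jejunal libraries were at 118, 66.2 and 110 normalised CPM in the Venus-positive libraries and 9.71, 9.07 and 9.44 in the Venus-negative libraries (log2 fold change 3.38, SE 0.35, adjusted p = 4.71e-08). Ileal values were 70.1, 92.2 and 98 against 8.95, 11 and 4.43 (log2 fold change 3.41, SE 0.35, adjusted p = 3.65e-08) and colonic ones 132, 123 and 121 against 26.6, 21.9 and 34.6 (log2 fold change 2.18, SE 0.33, adjusted p = 4.44e-05). In the duodenum the positive libraries had 68.4, 105 and 150 and the negative ones 70.0, 131 and 126, which overlapped (log2 fold change -0.02, adjusted p = 0.983). The duodenal negative libraries were thus at the level of positive ones, where jejunal and ileal negative libraries were at 4.43 to 11.

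Chst4, a sulfotransferase acting on N-acetylglucosamine, was at 68.4, 51.8 and 62.7 normalised CPM in the Venus-positive libraries and 4.42, 2.72 and 5.41 in the Venus-negative libraries of the duodenum (log2 fold change 3.87, SE 0.50, adjusted p = 1.36e-06). The ileum had 11.7, 17.2 and 8.02 against 1.07, 2.47 and 2 (log2 fold change 2.73, SE 0.48, adjusted p = 4.74e-05). In the jejunum it was at 2.62, 1.90 and 6.56 and 1.14, 0.579 and 1.69, and this call (log2 fold change 1.67, adjusted p = 0.00907) was lost without any 1 of jejunum Venus-negative replicate 2 and jejunum Venus-positive replicate 3 (0.97 to 1.35). Colonic libraries of the 2 sorts overlapped, at 18.5, 13.9 and 7.42 and 5.63, 20.1 and 16.2. Chst5, its neighbour in function, had 5 counts over all libraries.

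**Figure D3:**
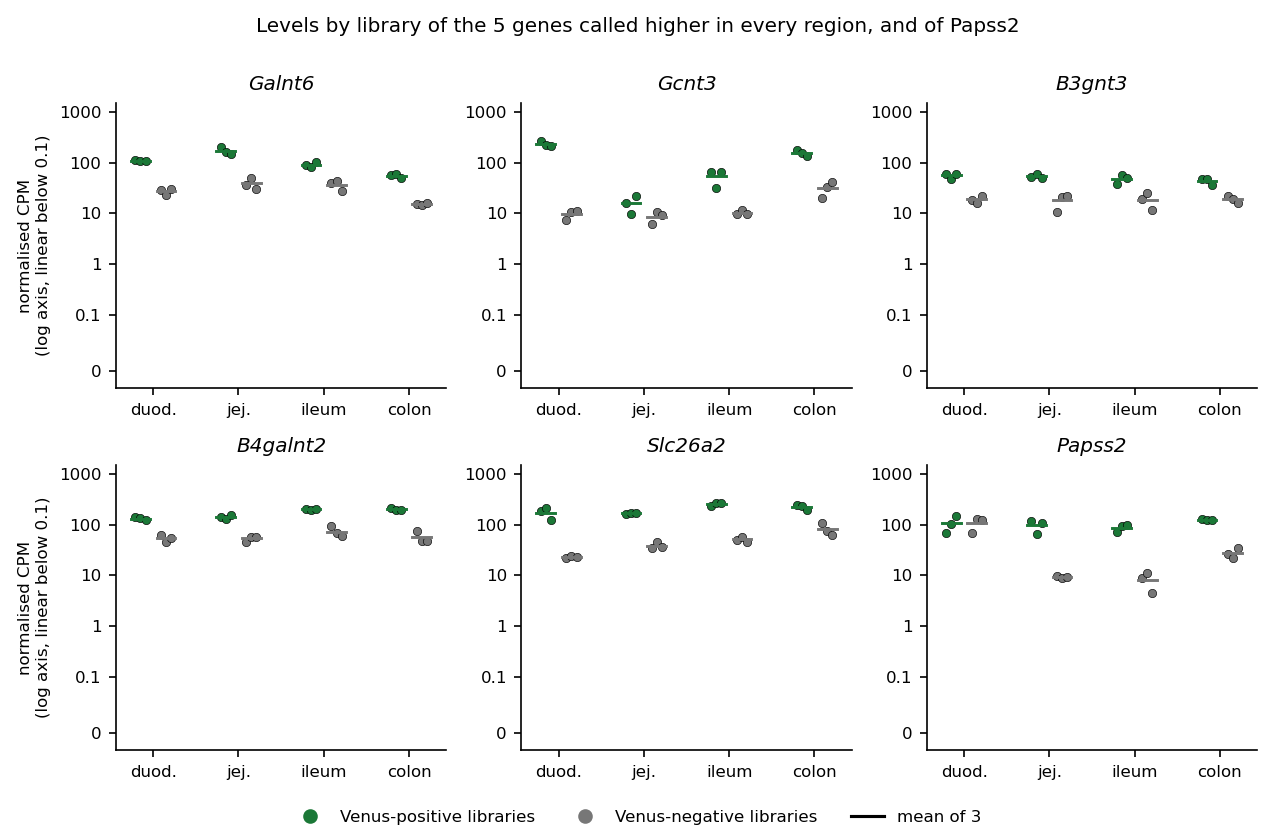
Level in every library (y axis, normalised CPM on a log axis that is linear below 0.1) of the 5 genes called higher in all 4 regions (x axis) and of Papss2. Green points are Venus-positive and grey points Venus-negative libraries, and lines are means of 3. The green points lie above the grey ones except for jejunal Gcnt3 and duodenal Papss2.

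Each nucleotide-sugar carrier was called in 1 region, Slc35a1 lower in the jejunum and Slc35a2 higher in the duodenum. Over all genes, 25.6% were called lower in the jejunum and 8.88% higher in the duodenum. Slc35a1, which brings CMP-sialic acid into the Golgi, was lower in jejunal positive libraries, 2.11, 1.51 and 5.03 against 14.1, 7.08 and 10.7 (log2 fold change -1.90, SE 0.39, adjusted p = 0.000228). Duodenal libraries were at 20, 34.0 and 13.8 and 13.1, 11.6 and 14.7, ileal ones at 10.8, 5.71 and 9.34 and 8.42, 7.44 and 12.0, with no call. Slc35a2, the carrier of UDP-galactose, was called higher in duodenal positive cells (log2 fold change 1.38, adjusted p = 0.00902), with levels of 9.68 to 14.4 normalised CPM against 3.75 to 5.64 in negative ones, and the call was lost without duodenum Venus-negative replicate 3 (1.22). Galnt18, the remaining tested transferase, had counts in 6 libraries only and was called in no sort difference.

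A companion list of 54 other genes of the pathway, of which 37 were tested, gave calls in both directions. There were 12 genes higher and 1 lower in duodenal, 9 and 7 in jejunal, 12 and 8 in ileal and 6 and 1 in colonic positive cells. Over all genes, 8.88%, 18.3%, 17.9% and 9.31% were called higher and 8.08%, 25.6%, 20.6% and 3.8% lower, so the jejunal counts were close to the shares over all genes. Gfpt1, the entry enzyme of hexosamine synthesis, and Uap1, which makes UDP-GlcNAc and UDP-GalNAc, were called higher in all 4 regions (log2 fold change 0.85 to 1.87 and 0.94 to 1.74). These 2 were singled out after their values were seen. B3gnt5, which starts lacto-series glycolipids, was called higher in the duodenum (3.58) and lower in jejunum, ileum and colon (-3.15, -1.31 and -1.47). The other genes with the largest called values were Galntl6 in the duodenum (4.91), St3gal3 in the jejunum (-2.10), St3gal2 and Slc35d2 in the ileum (-6.12 and 2.20) and Slc35d1 and Gcnt2 in the colon (2.57 and 2.35).

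Whether the sort difference itself depended on the region was tested as a difference of differences. These tests share libraries with the sort differences above. Between the duodenum and the mean of jejunum and ileum, 17 genes were called higher in the duodenum and 3 lower (background 9.6% and 7.9%). The median over the tested genes was 1.24 on the log2 scale, against 0.16 over all genes. The 17 included 6 GalNAc transferases (Galnt3, Galnt4, Galnt5, Galnt7, Galnt10 and Galnt12), C1galt1, C1galt1c1, Gcnt3, Fut4 and Fut8. Galnt12 (3.58, SE 0.54, adjusted p = 3.64e-05), Fut4 (3.14, SE 0.52, adjusted p = 0.000114) and Gcnt3 (2.94, SE 0.40, adjusted p = 1.12e-05) had the smallest adjusted p of these. The summed goblet markers moved the same way, at 53000 to 60500 in duodenal positive libraries against 1910 to 10100 in jejunal and ileal ones. So did Paneth markers, at 16500 to 45400 against 1420 to 13900, and stem and proliferation markers, at 483 to 986 against 34.6 to 300. The part of these markers' cells in the values was not tested.

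The 3 genes with a smaller duodenal difference were Papss2 (-3.41, SE 0.40, adjusted p = 2.57e-06), St3gal4 (-2.73, adjusted p = 0.000105) and Gcnt4 (-2.20, adjusted p = 0.00755). The sort difference of enterocyte markers moved the same way, with 2 of 6 called higher in the duodenum and 6 in both jejunum and ileum. Their sums in positive libraries were 1540 to 3500 in the duodenum, 19100 to 24400 in the jejunum and 2990 to 7230 in the ileum. In negative libraries they were 931 to 1390, 1450 to 2060 and 257 to 445. Papss2 overlapped in positive libraries, at 68.4 to 150 in the duodenum and 66.2 to 118 in jejunum and ileum. Its negative libraries were at 70.0 to 131 in the duodenum and 4.43 to 11 in jejunum and ileum. In positive libraries St3gal4 (106 to 155 against 441 to 791) and Gcnt4 (4.20 to 8.10 against 14.6 to 35.6) were lower in the duodenum. The part of enterocytes in the values was not tested. The calls of these 3 genes held without any 1 library. Of the 17 calls of a larger duodenal difference, 6 did not. That of Fut1, which rests on at most 11 counts in a group of the small intestine, was lost without any 1 of duodenum Venus-negative replicates 1, 2 and 3 and duodenum Venus-positive replicate 3 (6.95 to 7.64), all values fitted to few counts. A4gnt lost its call without any 1 of duodenum Venus-negative replicates 1 and 2, ileum Venus-negative replicate 1, duodenum Venus-positive replicate 2 and jejunum Venus-negative replicate 3 (3.28 to 5.14). For Slc35a1 it was lost without duodenum Venus-positive replicate 2 (1.36). The call of St6galnac2 was lost without any 1 of duodenum Venus-positive replicates 1 and 3, jejunum Venus-positive replicate 1, jejunum Venus-negative replicate 1, ileum Venus-negative replicate 1, duodenum Venus-negative replicates 2 and 3 and ileum Venus-positive replicate 2 (1.10 to 1.35). Slc35a2 lost it without any 1 of duodenum Venus-positive replicates 1 and 2, duodenum Venus-negative replicates 1, 2 and 3, jejunum Venus-negative replicate 1, ileum Venus-negative replicates 1 and 2, jejunum Venus-positive replicate 2 and ileum Venus-positive replicate 3 (1.17 to 1.45), and Chst4 without any 1 of duodenum Venus-positive replicates 1, 2 and 3, duodenum Venus-negative replicates 1, 2 and 3, jejunum Venus-positive replicates 1 and 2, jejunum Venus-negative replicates 1 and 3, ileum Venus-positive replicates 1 and 3 and ileum Venus-negative replicates 2 and 3 (1.42 to 1.89).

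**Figure D4:**
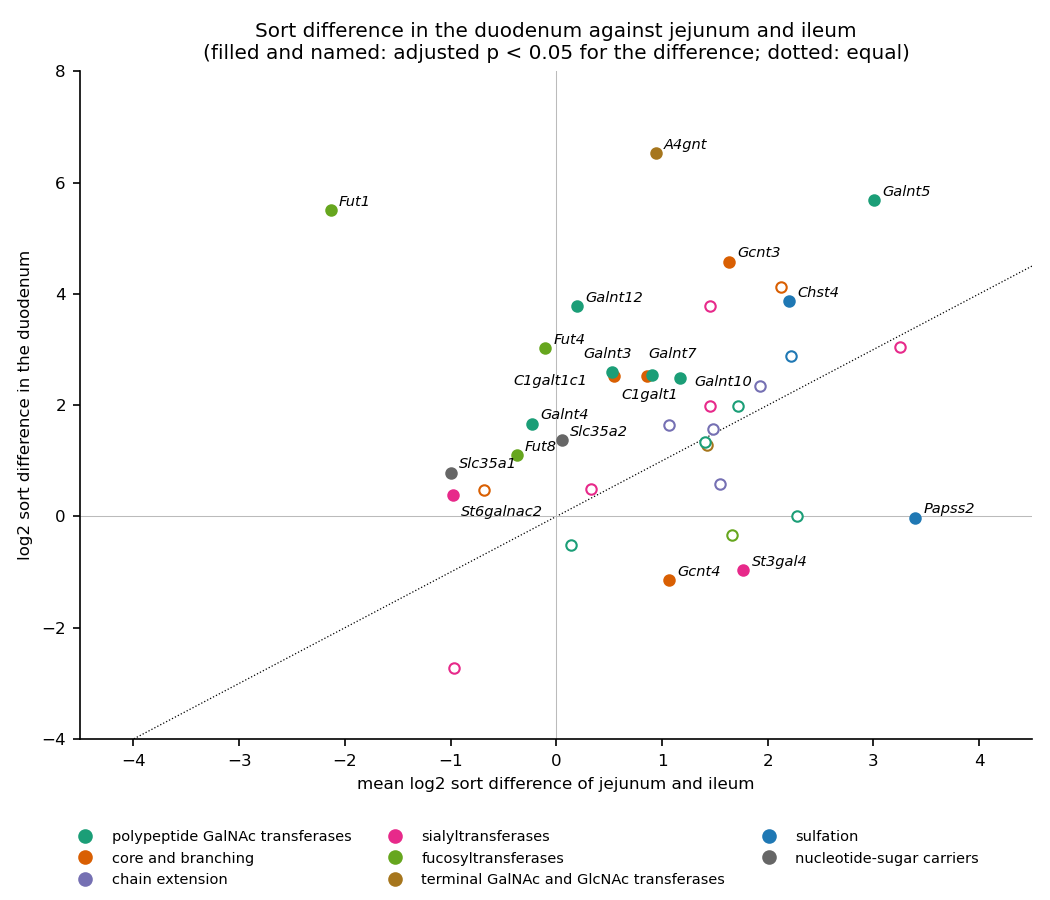
Log2 sort difference in the duodenum (y axis) against the mean of those in jejunum and ileum (x axis) for the 38 tested genes, coloured by role. Filled, named points passed the test of the difference. Of these 20 points, 17 lie above the dotted line of equality and Papss2, St3gal4 and Gcnt4 below it.

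Between the colon and the mean of the 3 small intestinal regions, 5 genes had a smaller sort difference in the colon and none a larger one (background 1.38% and 2.75%). At an unadjusted p under 0.05, 9 were smaller and 3 larger, and DESeq2 called 6 and 1. The 5 were B3gnt7 (-3.57, SE 0.62, adjusted p = 0.00108), Chst4 (-2.84, adjusted p = 0.00221), Galnt5 (-2.80, adjusted p = 0.00291), Galnt1 (-1.30, adjusted p = 0.0296) and Galnt10 (-1.07, adjusted p = 0.0365). For the first 3, the negative cells of the colon stood above those of the small intestine, at 38.8 to 40.1 against 1.44 to 7.93 normalised CPM for B3gnt7, 5.63 to 20.1 against 0.579 to 5.41 for Chst4 and 5.05 to 7.79 against 0.302 to 1.98 for Galnt5. Goblet marker sums stood the same way, at 926 to 1850 in colonic negative libraries against 296 to 455 in small intestinal negative ones, and their part was not tested. The calls of these 3 genes held without any 1 library. The call of Galnt1 was lost without any 1 of colon Venus-positive replicates 1, 2 and 3 and colon Venus-negative replicate 3 (-1.43 to -0.95), and that of Galnt10 without any 1 of duodenum Venus-positive replicate 1, duodenum Venus-negative replicates 1, 2 and 3, jejunum Venus-positive replicate 1, ileum Venus-negative replicate 1, colon Venus-positive replicates 1, 2 and 3, colon Venus-negative replicate 1 and ileum Venus-positive replicate 3 (-1.15 to -0.83).

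Levels themselves differed by region within each sort. In Venus-positive cells 12 genes were called higher in the colon than in the mean of the small intestinal regions and 4 lower (background 15.9% and 10.3%). In Venus-negative cells 21 were higher and 4 lower (5.74% and 6.53%). The median over the tested genes was 0.34 in positive and 1.09 in negative cells, against 0.151 and -0.136 over all genes. Marker sums moved with the region as well. In negative cells the goblet sum was higher in the colon (926 to 1850 against 296 to 455), while enterocyte markers (78.9 to 124 against 257 to 2060) and stem and proliferation markers (91 to 217 against 1070 to 3690) were lower. In positive cells colonocyte markers were higher in the colon (1460 to 1650 against 12.9 to 121), as were enteroendocrine markers (142 to 293 against 9.90 to 38.7), and enterocyte (310 to 400 against 1540 to 24400) and Paneth markers (39.6 to 193 against 1420 to 45400) were lower. In positive libraries the mitochondrial share was also higher in the colon (68.6 to 77.9% against 32.3 to 60.6%). The share of uncounted reads was lower there (41.9 to 47.2% against 51.9 to 75.8%), and both shares overlapped in negative libraries. The part of these cells and reads in the regional differences was not tested.

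St6galnac6 was the most regional of the 45. Colonic libraries were at 54.9, 62.6 and 54.2 in positive and 22.3, 27.4 and 18.7 in negative cells. No duodenal positive library had a count, jejunal positive libraries were at 0.0639, 0.0558 and 0.0729 and ileal ones at 0.915, 0.120 and 0.588, and negative libraries of the small intestine did not exceed 0.660. The colonic positive cells were at least 587-fold higher than the duodenal ones (2433 counts against none), and the ratio to the jejunum was 901 (95% counting interval 308 to 4370). The neighbouring St6galnac4 was at 2.78, 3.11 and 6.39 in colonic positive and 5.87, 7.18 and 5.61 in colonic negative libraries, and at no more than 1.01 in any library of the small intestine (log2 difference 3.51 in positive cells). In negative cells its 213 colonic counts stood against 3 ileal ones, a ratio of 149 (95% counting interval 50.2 to 726).

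Other genes called higher in the colon in both sorts, with log2 differences over 2, were A4gnt, B3galt5, St6gal1, Fut2, B3gnt6 and Slc35a1. Fut2 was at 36.9 to 56.3 in colonic positive libraries, and its ileal positive libraries, at 0.915, 68.9 and 42.4, overlapped them. Slc35a1 was at 39.9, 48.8 and 64.2 in colonic positive and 65.1, 59.1 and 85.7 in colonic negative libraries, against 1.51 to 34.0 in the small intestine (log2 difference 2.63 and 2.68, SE 0.27 each). B3galt5 was at 66.8 to 95.5 in colonic positive libraries, against 0.128 to 19.6 in those of the small intestine (log2 difference 4.09, adjusted p = 3.43e-06). B3gnt6, the core 3 synthase, had a log2 difference of 3.21 in positive cells. In negative cells its 48 colonic counts stood against 1 duodenal count, a ratio of 61.9 (95% counting interval 10.6 to 2500), and that call was lost without any 1 of colon Venus-negative replicates 2 and 3 (2.93 to 3.11). Gcnt1 was called higher in colonic positive cells, at least 131-fold above the jejunal ones without a count, though its ileal positive libraries, at 9.80 to 25.5, reached or passed the colonic 5.62 to 12.8.

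Gcnt3, Galnt4 and Galnt12 were also called higher in colonic positive cells than in the mean of the small intestinal regions (log2 difference 1.4, 0.76 and 1.05). The first 2 were called higher in colonic negative cells as well (1.72 and 0.99). In positive cells, however, every duodenal library stood above every colonic one for each of these genes. Duodenal against colonic levels were 207 to 264 against 132 to 174 for Gcnt3 and 85.7 to 93.3 against 59.3 to 76.3 for Galnt4. For Galnt12 they were 59.8 to 81.8 against 23.7 to 37.3. The call of Galnt4 was lost without colon Venus-positive replicate 1 (0.66) and with library size alone as the scale (0.37), and that of Galnt12 without any 1 of colon Venus-positive replicates 1 and 2 (0.90 to 1.03) and with library size alone (0.65). Lower levels in the colon in both sorts were called for 4 genes. Over all genes, 10.3% were called lower in positive and 6.53% in negative cells, so the count in positive cells was close to that share. The share of all genes called lower in both sorts was not counted. Gcnt4 had 1.16 to 3.94 in colonic and 4.20 to 35.6 in small intestinal positive libraries (log2 difference -2.62, and -3.80 in negative cells). St3gal4 had 48.2 to 76.2 against 106 to 791 (-2.61 and -3.50), and Galnt6 49.6 to 58.9 against 80.3 to 201 (-1.11 and -1.14). Galnt1 fell by 2.18 in positive cells, while its lower level in negative cells (-0.88) was not called without any 1 of colon Venus-negative replicates 1 and 2 (-0.78 to -0.56) or in 6 of the other settings tried.

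A further 11 genes were called higher in the colon in negative cells alone of the 2 sorts, which does not show that the sorts differ. Over all genes, 5.74% were called higher in the colon in negative cells, with or without a call in positive ones. They were Galnt5, Galnt7, Galnt10, Galnt18, B3gnt7, St3gal1, St3gal6, Fut1, Fut4, Chst4 and Slc26a2. Fut1 had 61 counts in colonic against none in duodenal negative libraries, at least 26.2-fold higher. Galnt18 rests on 1 group, with 4.19, 1.10 and 0 in colonic negative libraries and no count in any negative library of the small intestine. Pooled over the group, its colonic counts were at least 21.5-fold above the duodenal ones, a bound that leaves out the spread between libraries. DESeq2 did not call it (adjusted p = 0.344). St3gal1 depended on 1 library, since its log2 difference of 1.74 became 0.17 without colon Venus-negative replicate 1. The call of Fut4 was lost without colon Venus-negative replicate 1 (1), and that of Galnt7 without colon Venus-negative replicate 1 (0.47). B3gnt7, at 39.8, 40.1 and 38.8, had the most even colonic negative libraries of these genes (log2 difference 3.39, SE 0.39, adjusted p = 9.96e-08).

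**Figure D5:**
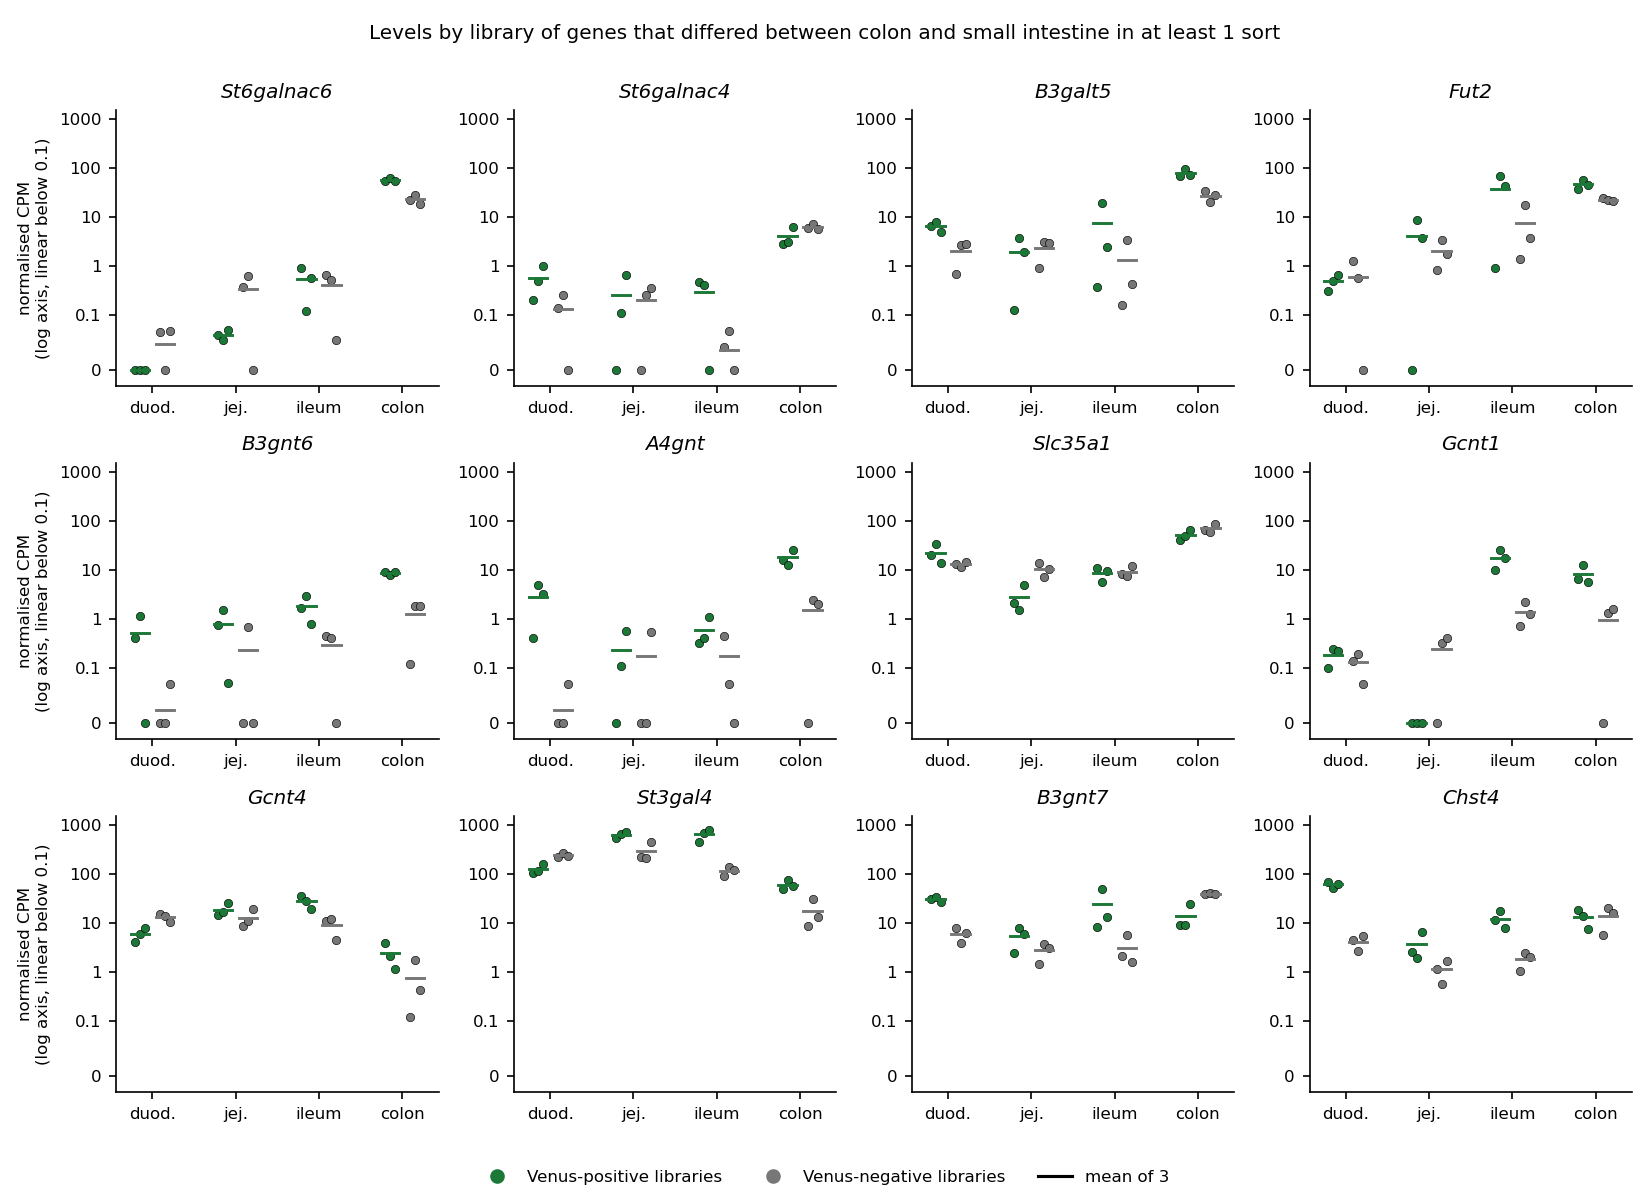
Level in every library (y axis, normalised CPM on a log axis that is linear below 0.1) of 12 genes by region (x axis). Green points are Venus-positive and grey points Venus-negative libraries, and lines are means of 3. Colonic points stand highest for St6galnac6, St6galnac4, B3galt5 and Slc35a1 and lowest for Gcnt4 and St3gal4.

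Along the small intestine, 6 genes were higher and 17 lower in ileal than in duodenal positive cells (background 12.5% and 13.1%, medians -0.60 and -0.0872). In negative cells 3 were higher and 2 lower (background 1.7% and 2.7%, medians 0.20 and 0.0575), and with library size alone as the scale 12 were higher. Gcnt1 had the largest rise toward the ileum in positive cells, from 0.102, 0.246 and 0.225 to 9.80, 25.5 and 17.9 (log2 difference 6.46). Fut2 went from 0.307, 0.493 and 0.675 to 0.915, 68.9 and 42.4 (6.24, SE 1.23) and the ranges did not overlap. St6galnac6 had 27 ileal counts against none, at least 5.68-fold higher. St3gal4, Gcnt4 and B4galt1 rose with log2 differences of 2.36, 2.19 and 1.87.

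The genes that fell toward the ileum in positive cells included 6 GalNAc transferases, both core 1 genes, Gcnt3, Chst4, St3gal6, St6galnac2, Fut4 and Fut8. Galnt12 had the largest value among those with counts in every library, from 81.8, 61.7 and 59.8 in the duodenum to 12.1, 6.49 and 8.53 in the ileum (-2.91, SE 0.44, adjusted p = 1.56e-05). Galnt5 followed (-2.51), then St3gal6, from 43.6, 35.7 and 25.3 to 9.31, 6.97 and 3.82 (-2.37). Fut1 fell from 11 counts to none, with duodenal cells at least 5.81-fold higher, and the call was lost without any 1 of ileum Venus-positive replicates 1, 2 and 3 and duodenum Venus-positive replicates 2 and 3 (-5.58 to -4.80). Slc35a1 (-1.39) lost its call without any 1 of duodenum Venus-positive replicate 2 and ileum Venus-positive replicate 2 (-1.16 to -0.97), and Slc35a2 (-1.18) without any 1 of duodenum Venus-positive replicates 1 and 2 and ileum Venus-positive replicates 2 and 3 (-1.21 to -1.05). Goblet marker sums moved in the same direction, from 53000 to 60500 in the duodenum to 4390 to 10100 in the ileum. Paneth sums (16500 to 45400 against 3750 to 8910) and stem and proliferation sums (483 to 986 against 114 to 225) were also lower in the ileum without overlap. Tuft sums were lower in the ileum (2.85 to 4.15 against 5.33 to 11.2) and colonocyte sums higher (82.5 to 121 against 12.9 to 39.8), both without overlap. Enterocyte sums overlapped, at 1540 to 3500 and 2990 to 7230, and the part of these cells in the values was not tested.

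In negative cells goblet sums overlapped, at 310 to 434 in the duodenum and 306 to 389 in the ileum. Enterocyte sums were lower in the ileum without overlap, at 257 to 445 against 931 to 1390, as were enteroendocrine sums, at 140 to 431 against 664 to 814, and colonocyte sums, at 21.5 to 38.5 against 49.4 to 64.7. The part of these cells in the differences that follow was not tested. Papss2 fell from 70.0, 131 and 126 in the duodenum to 8.95, 11 and 4.43 in the ileum (log2 fold change -3.74, SE 0.36, adjusted p = 1.37e-08). St3gal6 fell from 27.2, 26.4 and 20.8 to 2.19, 7.65 and 5.54 (log2 fold change -2.27, SE 0.38, adjusted p = 0.000201). St6gal1 rose from 0, 0.324 and 0 to 3.51, 2.72 and 2.94 (log2 fold change 4.66, SE 0.88, adjusted p = 0.000834), and Slc26a2 from 22.4, 24.6 and 22.6 to 49.5, 58.2 and 45.7 (log2 fold change 1.14, SE 0.26, adjusted p = 0.00651). None of these 4 pairs of groups overlapped. Gcnt1, at 0.140, 0.195 and 0.0721 in the duodenum and 0.743, 2.22 and 1.27 in the ileum, was called higher (3.30) and lost the call without any 1 of duodenum Venus-negative replicates 1, 2 and 3 and ileum Venus-negative replicate 2 (2.80 to 3.64).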

How the data were processed

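RNA of 24 libraries was sequenced as single-end reads. The authors deposited raw read counts per gene; the submitters' processing notes name CASAVA, STAR 2.5.1 and GRCm38. The annotation and strand setting of the counting are not given in the sources used here. Reads outside genes, ambiguous or multimapping (39.4 to 75.8% of a library) were left out, and 0 columns lacked a sample. Gene positions and overlaps came from GENCODE gene models of GRCm38.

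Counts were fitted in edgeR 4.0.16 under R 4.3.3 (TMM, filterByExpr with a minimum count of 10 and a total of 15, 1 coefficient per group, quasi-likelihood F test). The p-values were adjusted by Benjamini-Hochberg over the 15044 genes tested in each of 10 contrasts, with a threshold of 0.05. Contrasts share libraries and are not independent of each other. No source ties a library to a separate mouse by name, so p-values measure the spread between these libraries. The fit was also run on simulated counts with known changes in the duodenal sort difference. There every gene had the same dispersion (spread beyond counting noise), so that run is no check of the calls made in these data. Folds against a group with no counts were computed against a floor of 3 counts over the group. These folds and the counting intervals use counts pooled over a group and leave out the spread between its libraries. Levels were compared between genes only per kilobase of exon.

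Libraries were listed one by one for genes called with 1 sign in at least 3 regions or with opposite signs in 2, and for the 3 largest called changes in each direction of each contrast. Companion genes were named where among the 2 largest called changes of a region, apart from Gfpt1 and Uap1, which were singled out after their values were seen. The members and lists were chosen with earlier results of these data known. DESeq2 1.42.0, other scalings and filters, an index covariate and leaving out each library were tried as alternatives.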

Additional observations from a re-analysis of the deposited data

Results flagged for a closer look

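The sort difference (Venus-positive minus Venus-negative, log2 scale) differed between regions, by a test of the difference itself, for 5 genes when the colon was set against the mean of the small intestine. These values were -1.30 for Galnt1, -2.80 for Galnt5, -1.07 for Galnt10, -3.57 for B3gnt7 and -2.84 for Chst4, all smaller in the colon.

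Set against the mean of jejunum and ileum, the duodenal difference was larger for 17 genes. Among the initiating enzymes the values were 2.06 for Galnt3, 1.90 for Galnt4, 2.67 for Galnt5, 1.63 for Galnt7, 1.32 for Galnt10 and 3.58 for Galnt12. The core enzymes followed with 1.67 for C1galt1, 1.97 for C1galt1c1 and 2.94 for Gcnt3. Capping genes had 1.35 for St6galnac2, 3.14 for Fut4 and 1.48 for Fut8, while 7.63 for Fut1 and 5.58 for A4gnt are fitted values of genes with 1 count or none in a group. Chst4 (1.66) and the carriers Slc35a1 (1.78) and Slc35a2 (1.33) complete the 17. The duodenal difference was smaller for Gcnt4 (-2.20), St3gal4 (-2.73) and Papss2 (-3.41).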

How the results depend on the processing

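Of 168 called differences of these genes, 132 stayed past the threshold in the same direction under every alternative that gave a value, and 35 were lost when some library was left out. The reversed value was that of B3galt5 in the ileum, -0.08 without ileum Venus-positive replicate 2 (-0.08 to 4.64 over the libraries left out); the cause was not tested for it or for the changes that follow. Calls lost numbered 3 of 168 in DESeq2, 2 with RLE factors, 10 with library size alone, 8 without a filter, 4 of 111 with at least 10 counts in every library, 4 of 167 without mitochondrial genes, 0 with the i5 index as covariate and 7 of 160 with the compared groups alone. Library size alone moved the median of all genes by up to 0.61 (ileum against duodenum in negative cells), where it called 12 genes higher instead of 3. In that comparison 5 were called without a filter, 1 with 10 counts everywhere and 2 to 5 with a library left out.

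Requiring 10 counts in every library leaves fewer genes to test. It then called 13 genes higher in the ileal sort difference, 4 higher in the colon in positive and 9 higher and 2 lower in negative cells, and 2 higher in ileal than duodenal positive cells. The count of genes lower in the duodenal sort difference became 1 in DESeq2, with 10 counts everywhere and with the i5 index, and 2 with the compared groups alone. In the jejunum it became 1 with the compared groups alone and 1 to 3 with a library left out, and in the ileum 0 to 1. In the colon it was 1 (B3gnt7) instead of 0 in all 8 alternatives and 0 to 1 with a library left out. The count of larger sort differences in the colon than in the small intestine became 1 in DESeq2, 2 without a filter, 1 with the i5 index and 0 to 1 with a library left out, and that of smaller ones 3 to 6. No paired analysis was made because the labels give neither a mouse nor a replicate number for any library, and the numbers used here only follow the order of the samples. Whether libraries of the same number share a mouse is not stated, and no fit allowed for a shared mouse. Depth limits genes below about 3 counts per library, or 0.106 to 0.360 normalised CPM.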
